A study of Rattus norvegicus with 20 samples.

Results

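The comparison set the Wnt3a ligand against CHIR99021 in cultured rat neural stem cells, over 5 treatment profiles in which both inducers were sequenced. Its members are 10 of the 20 libraries of the series, 5 with Wnt3a and 5 with CHIR99021, chosen by the inducer and the profile in the labels. In 3 profiles the inducer was kept on for 1, 3 or 5 d (ON). In the other 2 it was given for 1 d and then withdrawn for 1 or 2 d (OFF), so that these cells were collected on days 2 and 3. The cells came from the hippocampus of adult Fisher 344 rats, and all 10 libraries, like the unstimulated libraries used below, came from cells that carry optoWnt, a light-sensitive receptor construct delivered by transduction (multiplicity of infection 0.5) and kept by puromycin selection. Wnt3a was given at 100 ng/mL and CHIR99021 at 3 mM as the labels print it, in basal medium with 0.5% serum. The 3 unstimulated optoWnt libraries of 0, 3 and 5 d give the background level. Titles of the 3 and 5 d ones carry the word ON, and the labels do not say what that means for cells without an inducer.

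Wnt3a is a secreted ligand that binds a Frizzled receptor and the co-receptor LRP5 or LRP6 at the cell surface, which inhibits the complex that destroys β-catenin. CHIR99021 is a small molecule that enters the cell and inhibits GSK-3, the kinase of that complex, with no need for a receptor. Both stabilise β-catenin, which drives target genes together with TCF and LEF factors, and in the adult hippocampus this pathway is known to act on the division and neuronal differentiation of stem cells. GSK-3 also phosphorylates proteins outside the Wnt pathway. The question of the comparison is where the ligand and the kinase inhibitor left different transcripts at the same time and under the same schedule.

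Each inducer and profile was sequenced once, so a level has no replicate error of its own and the 5 profiles stand in for replicates. The labels do not say whether libraries came from separate cultures, and p-values measure only the spread of the Wnt3a minus CHIR99021 difference between profiles. Totals in the 10 libraries ran from 696463 reads in Wnt3a at 1 d ON, by far the shallowest, to 5125320 in CHIR99021 at 1 d ON, and 12093 to 15462 genes had at least 1 read. A count of 0 allows up to 4.21 CPM (read counts scaled to a library size common to all 20 libraries) in Wnt3a at 1 d ON, the level of 3 counts, and up to 1.25 CPM or less in the other 9, for counting error only. Of the 10, 3 libraries had low scores on the first principal component of all 20 libraries, which held 29.4% of the variance: Wnt3a at 5 d ON (-109.8), Wnt3a at 1 d ON 2 d OFF (-68.7) and CHIR99021 at 1 d ON 2 d OFF (-43.9). The other 7 scored 21.4 or higher. The 5 d ON pair is thus the 1 pair whose libraries stand on opposite sides. The files do not pair the Ensembl gene IDs with symbols, so genes are given by ID and no marker or pathway could be checked.

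The inducers left profiles that were furthest apart at 5 d ON and closest after withdrawal. Of the 9557 genes that averaged 5 CPM or more over the 10 libraries, 48.0% were at least 2-fold apart at 5 d ON, 2039 higher and 2549 lower under Wnt3a. These are bulk libraries, in which fewer cells of a type and less RNA per cell cannot be told apart. At 1 d ON 15.1% were, and at 3 d ON 13.8%. After 1 d ON 1 d OFF the share was 3.63%, with 148 genes higher and 199 lower under Wnt3a, and after 1 d ON 2 d OFF it was 9.22%, with 387 higher and 494 lower. Pearson's r of log2 CPM between the 2 libraries of a pair, across these genes, was 0.917, 0.908 and 0.707 at 1, 3 and 5 d ON, and 0.97 and 0.951 after 1 and 2 d OFF. Both withdrawn pairs thus agreed more closely than any ON pair, although the 2 d OFF libraries were as old as those of 3 d ON. Over the 5 pairs the shares averaged 6.43% in the 2 OFF profiles and 25.6% in the 3 ON profiles (exact two-sided permutation p = 0.2). With 2 OFF and 3 ON profiles this test allows no smaller p, so it cannot decide whether the shares differ.

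The values moved with depth. When all 10 libraries were thinned to 696463 reads, the shares were 13.9%, 16.3% and 45.7% at 1, 3 and 5 d ON, and 8.71% and 13% after 1 and 2 d OFF. The order of ON over OFF stayed in this single random draw, but narrowly, with 13.9% at 1 d ON against 13% after 2 d OFF. At 1 d ON the larger direction turned round, with 726 genes higher and 606 lower under Wnt3a after thinning, against 573 higher and 869 lower at the deposited depth. No balance between directions can therefore be read at 1 d ON.

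**Figure D1:**
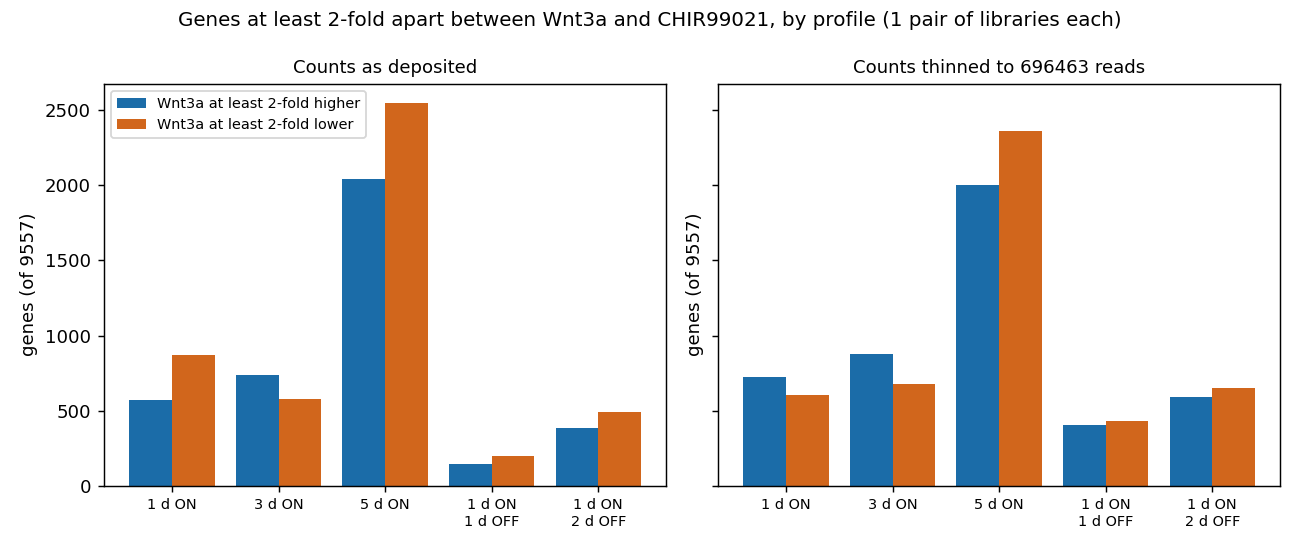
Number of genes, of 9557, at least 2-fold higher (blue) or lower (orange) under Wnt3a than under CHIR99021 in each treatment profile, at the deposited depth (left) and with every library thinned to 696463 reads (right). Each bar rests on 1 pair of libraries. The 5 d ON pair stands highest in both panels, and the 1 d ON 1 d OFF pair lowest.

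The difference in 1 profile went only partly with that in another, at the deposited depth. Across the 9557 genes, Pearson's r between the Wnt3a minus CHIR99021 log2 differences of 2 profiles was highest between 5 d ON and 1 d ON 2 d OFF (0.466), the pairs that hold the 3 libraries with low component scores, whose part in this value was not tested. It was 0.381 between 3 and 5 d ON and 0.339 between 1 and 3 d ON. The 1 d ON difference had an r of -0.0411 with that of 5 d ON, and -0.103 and -0.0928 with those of 1 and 2 d OFF. The 1 d ON pair holds the shallowest library (696463 reads). These r were not computed on thinned counts, so the part of depth in them was not tested. No library is shared between profiles, and genes are not independent replicates.

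Against this spread, no gene's mean difference over the 5 profiles was called. With profile as a block, 0 of 11830 genes (0%) had an edgeR quasi-likelihood adjusted p under 0.05 (such genes are referred to as called), and the smallest adjusted p was 0.057. An unadjusted p under 0.05 was found for 1132 genes (9.57% of those tested), 587 higher and 545 lower under Wnt3a. DESeq2, on the same design, called 163 of the 10453 genes it gave an adjusted p (1.56%), 71 higher and 92 lower. All 163 had an unadjusted edgeR p under 0.05, and 143 had a difference of 1 sign in 5 of 5 profiles. Of all 11830 genes tested, 570 were higher and 726 lower under Wnt3a in 5 of 5. The 163 were called on these same pairs, which favours 1 sign, so the 143 are no separate support. The count thus depends on the tool. Without the 5 d ON pair edgeR called 2 genes, both lower under Wnt3a.

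A few genes nevertheless differed by a wide margin at every profile. In 5 of 5 pairs, 9 of the 9557 genes (0.0942%) had a Wnt3a level at least 2-fold below that of CHIR99021, and 1 (0.0105%) a level at least 2-fold above it. With all libraries thinned to 696463 reads these numbers were 5 and 2. All 5 Wnt3a libraries lay below all 5 CHIR99021 libraries for 29 genes (0.303%), and above them for 19 (0.199%). These counts are descriptions, and edgeR called none of the genes in them for the mean difference over the 5 profiles.

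Both genes with the smallest p were lower under Wnt3a. ENSRNOG00000058645 stood at 5.61, 39.7 and 115 CPM under Wnt3a at 1, 3 and 5 d ON, against 139, 376 and 863 CPM under CHIR99021. At 1 and 2 d OFF it stood at 67.2 and 18.4 CPM under Wnt3a, against 277 and 128 CPM under CHIR99021. Every Wnt3a library was below every CHIR99021 library, and the CHIR99021 level was highest at 5 d ON. Cells that had CHIR99021 for 1 d only were not below the 1 d ON level after 1 d OFF and were close to it after 2 d OFF. Unstimulated cells stood at 86.9, 13.2 and 54.4 CPM at 0, 3 and 5 d, so CHIR99021 lay above all of them at every profile. The Wnt3a libraries were within the unstimulated range, apart from 5.61 CPM at 1 d ON (4 counts, with a floor of 4.21 CPM) and 115 CPM at 5 d ON. The log2 fold change over the 5 pairs was -2.96 (SE 0.33, edgeR adjusted p = 0.057, DESeq2 adjusted p = 2.6e-14, lower in 5 of 5).

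ENSRNOG00000005392 had a similar order with another time course. It stood at 5.61, 51.1 and 113 CPM under Wnt3a at 1, 3 and 5 d ON, against 22.1, 546 and 726 CPM under CHIR99021. In the 1 and 2 d OFF profiles it stood at 23 and 40.6 CPM under Wnt3a, against 83.8 and 182 CPM under CHIR99021. Every pair was apart in 1 direction, but the groups overlapped, since CHIR99021 at 1 d ON lay below 4 of the 5 Wnt3a libraries. Levels went up with the days ON under both inducers, and also with time in unstimulated cells (3.69, 9.06 and 68.4 CPM at 0, 3 and 5 d). The log2 fold change was -2.46 (SE 0.29, edgeR adjusted p = 0.057, DESeq2 adjusted p = 5e-10, lower in 5 of 5). Both genes had an edgeR adjusted p under 0.05 once the 5 d ON pair was left out (0.014 and 0.026), and an adjusted p between 0.057 and 0.34 without any other single pair.

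Among the genes that were higher under Wnt3a in 5 of 5 pairs and averaged at least 5 CPM, the smallest p belonged to ENSRNOG00000030515. It stood at 213, 245 and 165 CPM under Wnt3a at 1, 3 and 5 d ON, against 43.3, 43.6 and 45.3 CPM under CHIR99021. After 1 and 2 d OFF it stood at 223 and 280 CPM under Wnt3a, against 130 and 106 CPM under CHIR99021. The groups did not overlap, and the CHIR99021 libraries split into 3 low ON and 2 higher OFF values. Unstimulated cells went through 43.4, 503 and 769 CPM at 0, 3 and 5 d, so the ON libraries of CHIR99021 stayed at the 0 d level at each day and the Wnt3a libraries lay between the 0 and 3 d levels. The log2 fold change was 1.78 (SE 0.30, edgeR adjusted p = 0.16, DESeq2 adjusted p = 2.4e-05, higher in 5 of 5).

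ENSRNOG00000002419 was likewise a transcript that builds up in unstimulated cells, with 11.6, 1040 and 3090 CPM at 0, 3 and 5 d. It stood at 254, 996 and 775 CPM under Wnt3a at 1, 3 and 5 d ON, against 120, 190 and 217 CPM under CHIR99021. In the 1 and 2 d OFF profiles it stood at 445 and 951 CPM under Wnt3a, against 273 and 265 CPM under CHIR99021. Wnt3a at 3 d ON and at 2 d OFF was thus close to the unstimulated 3 d level, while no CHIR99021 library passed 273 CPM, and the groups overlapped only through Wnt3a at 1 d ON. The log2 fold change was 1.59 (SE 0.28, edgeR adjusted p = 0.2, DESeq2 adjusted p = 9.3e-05, higher in 5 of 5).

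**Figure D2:**
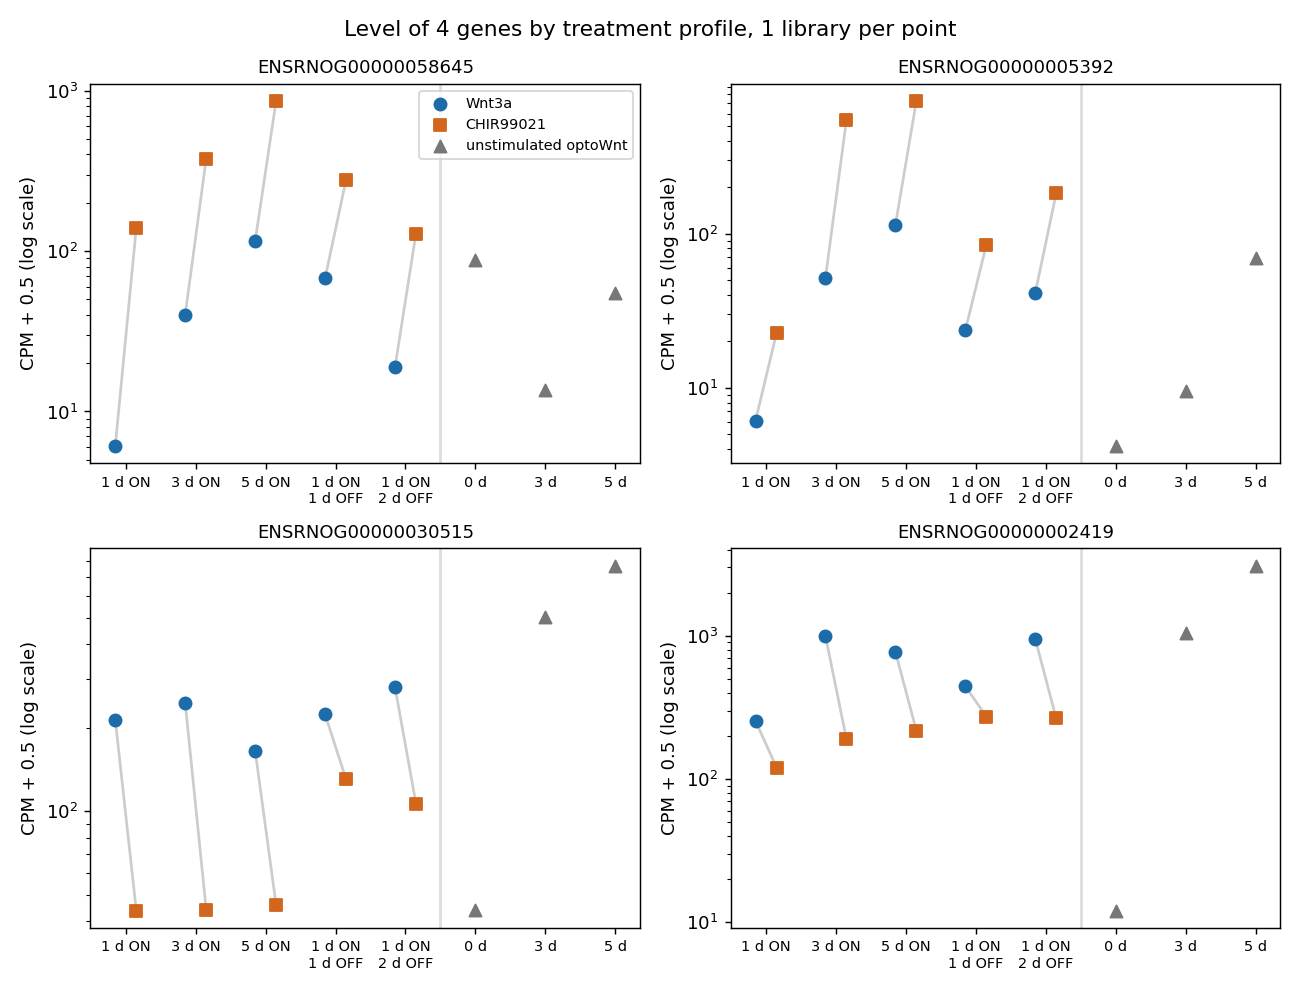
CPM plus 0.5, on a log axis, of 4 genes in the Wnt3a (blue circles) and CHIR99021 (orange squares) library of each treatment profile, joined by a grey line, and in unstimulated optoWnt cells of 0, 3 and 5 d (grey triangles). Each point is 1 library. The 2 upper genes were lower, and the 2 lower genes higher, under Wnt3a in all 5 pairs.

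The 1 gene at least 2-fold higher under Wnt3a in every pair was ENSRNOG00000021023, named after its values were seen. It stood at 51.9, 350 and 441 CPM under Wnt3a at 1, 3 and 5 d ON, against 3.44, 3.8 and 3.1 CPM under CHIR99021. Withdrawal for 1 and 2 d left it at 91.6 and 595 CPM under Wnt3a, against 27 and 271 CPM under CHIR99021. Under constant CHIR99021 the gene stayed close to the 2.27 CPM of unstimulated 0 d cells for 5 d, while unstimulated cells reached 664 and 740 CPM at 3 and 5 d. It left that low level in the CHIR99021 libraries of 1 and 2 d OFF. The log2 difference between inducers was 3.72, 6.33 and 6.92 at 1, 3 and 5 d ON and 1.74 and 1.13 after 1 and 2 d OFF. The fitted mean of 3.94 had an SE of 0.96 and was not called (edgeR adjusted p = 0.36). DESeq2 called the gene (adjusted p = 0.0046), and so did edgeR with no low-count filter (6.7e-06) and in the OFF profiles alone (0.0014). Its edgeR adjusted p ran from 0.11 to 0.83 in the other alternatives. Its slope on the days ON, a test described below, was called by edgeR.

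The 9 genes at least 2-fold lower under Wnt3a in every pair, the first 2 IDs above among them, were chosen on these differences, and their sizes are given as a description. Their median log2 difference was -3.02, -3.09 and -2.9 at 1, 3 and 5 d ON, and -1.58 and -1.73 after 1 and 2 d OFF, against medians of all tested genes between -0.09 and 0.01. Single genes ranged from -5.8 (3 d ON) to -1.08 (1 d ON 2 d OFF). Their edgeR adjusted p ran from 0.057 to 0.27, and DESeq2 called all 9.

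The 9 genes were set beside unstimulated cells. Their median was 5.61, 12.3 and 20 CPM under Wnt3a at 1, 3 and 5 d ON, against 22.1, 102 and 192 CPM under CHIR99021, and 1.14, 5.47 and 40.1 CPM in unstimulated cells of 0, 3 and 5 d. At 3 d ON, 6 of the 9 under Wnt3a and all 9 under CHIR99021 were at least 2-fold above unstimulated optoWnt cells of that day. At 5 d ON these numbers were 4 and 9, and after 1 d ON 2 d OFF they were 4 and 6. Of all 9557 genes, 1088 under Wnt3a and 1565 under CHIR99021 were at least 2-fold above at 3 d ON. At 5 d ON 1962 and 739 were, and after 1 d ON 2 d OFF 1211 and 1002. The choice of the 9 for CHIR99021 above Wnt3a favours a higher count under CHIR99021. Under Wnt3a, 1 of the 9 at 5 d ON and 2 of the 9 after 2 d OFF were at least 2-fold below unstimulated cells. Of the 9557 these were 2558 and 1592. Both inducers are set here against 1 shared unstimulated library per day. The light-stimulated optoWnt libraries stood at a median of 3.65 and 16.4 CPM at 1 and 3 d ON and at 5.99 and 6.17 CPM after 1 and 2 d OFF, nearer to Wnt3a than to CHIR99021.

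Distance from unstimulated cells gave different orders on different days. At 3 d ON, 2.34% of the 9557 genes were at least 4-fold apart from unstimulated optoWnt cells of that day under Wnt3a (127 higher, 97 lower), against 8.3% under CHIR99021 (387 higher, 406 lower). At 5 d ON the order was the other way, with 15.5% under Wnt3a (458 higher, 1028 lower) and 5.7% under CHIR99021 (218 higher, 327 lower). After 1 d ON 2 d OFF the shares were 4.92% under Wnt3a and 3.68% under CHIR99021. The Wnt3a library of 5 d ON, with the lowest component score of all 20, carries the 5 d value. Its part in that value was not tested.

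Whether the gap between inducers grew with the days of stimulus was tested as a slope of the Wnt3a minus CHIR99021 difference on the days ON. Withdrawn libraries were entered at the 1 d they received. In the ON profiles the days ON were also the day of collection, and only the OFF profiles separate the 2. A gap that grew with time in culture was not tested apart from this slope. Of 11830 genes, 62 (0.524%) were called by edgeR, 39 with a slope above 0 (Wnt3a moving up relative to CHIR99021) and 23 with a slope below 0, with a median absolute slope of 1.03 log2 units per day. In the 39 genes the median difference was 0.19, 2.02 and 4.15 at 1, 3 and 5 d ON, and 0.38 and 0.47 after 1 and 2 d OFF. In the 23 genes it was 0.08, -1.37 and -4.57 at 1, 3 and 5 d ON, and -0.01 and -0.42 after 1 and 2 d OFF. By the median the inducers were close at 1 d and after withdrawal, and apart at 3 and 5 d. The choice of genes by this slope favours that pattern, so it is a description. Single genes departed from it. Of the 39, 5 were at least 2-fold lower and 9 higher under Wnt3a at 1 d ON, and 1 lower and 9 higher after 2 d OFF. Of the 23 these numbers were 0 and 0 at 1 d ON, and 2 and 2 after 2 d OFF.

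Levels are given for both sides. The 39 genes had medians of 49.1, 63.2 and 137 CPM under Wnt3a at 1, 3 and 5 d ON, against 30.5, 13 and 7.32 CPM under CHIR99021, with 38.6, 82.9 and 56.7 CPM in unstimulated cells of 0, 3 and 5 d. CHIR99021 lay below the whole unstimulated range at 1, 3 and 5 d ON, and Wnt3a above it at 5 d ON. After 1 and 2 d OFF the medians were 62.9 and 134 CPM under Wnt3a, against 48 and 84 CPM under CHIR99021, so the Wnt3a library of 2 d OFF, with 1 d of stimulus and a low component score, was about as high as that of 5 d ON. The 23 genes had medians of 72.9, 51.1 and 6.24 CPM under Wnt3a at 1, 3 and 5 d ON, against 50.6, 164 and 221 CPM under CHIR99021, with 63.3, 46 and 56.7 CPM in unstimulated cells. Here the levels went opposite ways, down under Wnt3a at 5 d ON and up under CHIR99021 at 3 and 5 d ON. In the other optoWnt libraries with low component scores the 23 genes were also low. Their median was 13.8 CPM in Wnt3a and 17.8 CPM in CHIR99021 after 2 d OFF, and 18.8 CPM in light at 3 d ON. Unstimulated wild-type libraries of 0 and 5 d also had low scores (-68.2 and -76.2), and their levels of these genes were not examined.

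The slope calls rest on few libraries. Without the 5 d ON pair 0 genes were called, without the 1 d ON pair 0, without the 1 d ON 1 d OFF pair 1, without the 1 d ON 2 d OFF pair 328 and without the 3 d ON pair 1319. With the first component as a covariate 19 genes were called, 18 above and 1 below 0, of which 2 were among the 62. DESeq2 called 840 of 9765 genes (8.6%), 290 above and 550 below 0, with all 62 among them.

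**Figure D3:**
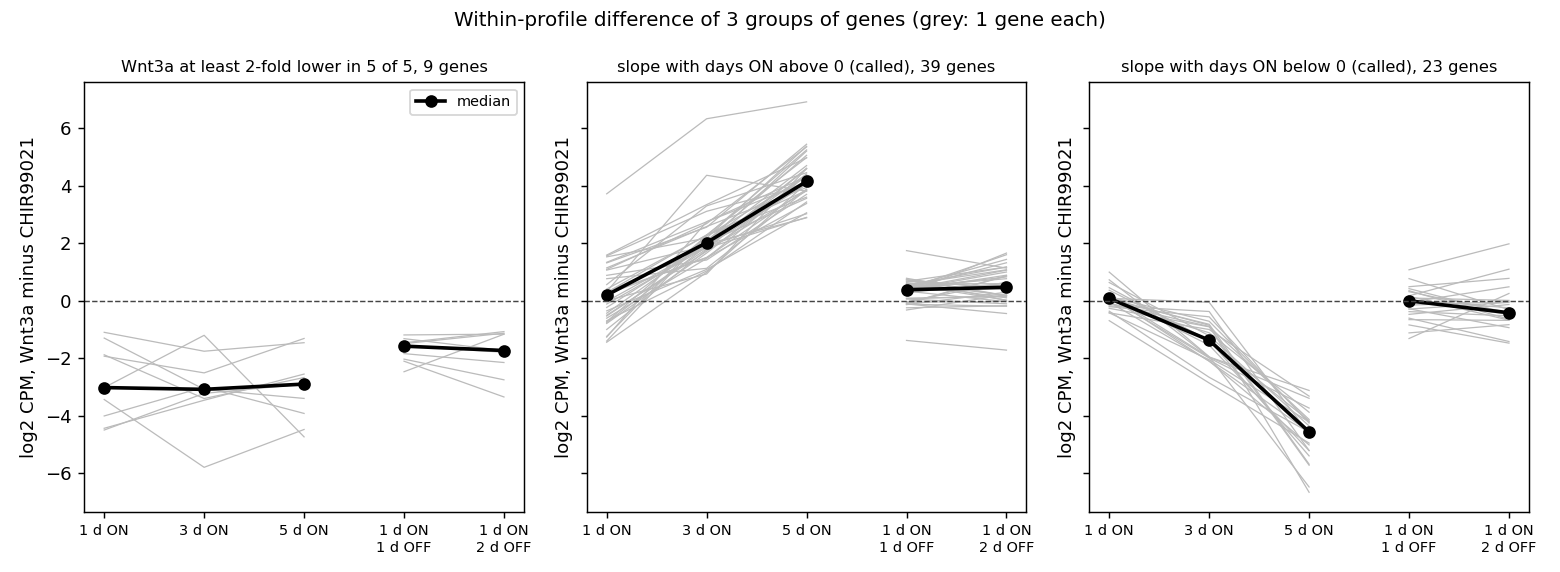
Log2 CPM of Wnt3a minus CHIR99021 within each treatment profile, for the 9 genes at least 2-fold lower under Wnt3a in all 5 pairs (left) and the genes whose difference changed with the days ON, 39 with a slope above 0 (middle) and 23 below 0 (right). Each grey line is 1 gene and the black line is the median, which in the middle panel is 4.15 at 5 d ON and 0.47 after 2 d OFF. The genes were chosen on these values.

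The 2 genes with the largest called slopes in each direction all lost the call without the 1 d ON pair (edgeR adjusted p 0.1 to 0.13) and without the 5 d ON pair (0.19 to 1). The slopes above 0 kept their size in these fits, while those below 0 were smaller without the 5 d ON pair. Without the 1 d ON 1 d OFF pair only ENSRNOG00000018233 kept the call (edgeR adjusted p = 0.022, against 0.098 in the others). With the first component as a covariate none kept it (0.064 to 0.48). ENSRNOG00000008656 stood at 7.01, 15.2 and 7.08 CPM under Wnt3a at 1, 3 and 5 d ON, against 5.54, 0.224 and 0 CPM under CHIR99021 (29, 1 and 0 counts). After 1 and 2 d OFF it stood at 13.7 and 2.31 CPM under Wnt3a, against 8.41 and 1.52 CPM under CHIR99021. The transcript had 1 count or none under CHIR99021 at 3 and 5 d ON, where 0 counts allow up to 0.845 CPM at 5 d, and was detected in all 5 Wnt3a libraries, although the 1 d ON value rests on 5 counts. Its slope was 2.52 log2 units per day (SE 0.42, edgeR adjusted p = 0.038), against 2.49 without the 1 d ON pair and 2.65 without the 5 d ON pair.

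ENSRNOG00000026548 was high in a single library. It stood at 0, 0.918 and 40 CPM under Wnt3a at 1, 3 and 5 d ON, against 0, 0.224 and 1.13 CPM under CHIR99021, and after 1 and 2 d OFF at 2.04 and 1.73 CPM under Wnt3a, against 6.19 and 6.94 CPM under CHIR99021. All values in the 10 libraries but the Wnt3a one of 5 d ON were 6.94 CPM or lower. The slope was 1.72 (SE 0.26, edgeR adjusted p = 0.038), and without the 5 d ON pair it was 1.83, not called (adjusted p = 0.88).

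ENSRNOG00000018233 stood at 91.1, 39.1 and 3.75 CPM under Wnt3a at 1, 3 and 5 d ON, against 45.4, 153 and 383 CPM under CHIR99021. At 1 and 2 d OFF it stood at 51 and 11 CPM under Wnt3a, against 128 and 9.11 CPM under CHIR99021. Unstimulated cells held 88.3, 46 and 46.5 CPM at 0, 3 and 5 d, between the inducers at 5 d. The slope was -1.52 (SE 0.25, edgeR adjusted p = 0.038), and -0.96 without the 5 d ON pair (adjusted p = 0.7).

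ENSRNOG00000031358 stood at 101, 325 and 2.08 CPM under Wnt3a at 1, 3 and 5 d ON, against 95.4, 587 and 266 CPM under CHIR99021. In the 1 and 2 d OFF profiles it stood at 209 and 27.7 CPM under Wnt3a, against 123 and 34.5 CPM under CHIR99021. The slope of -1.49 (SE 0.27, edgeR adjusted p = 0.039) was -0.54 without the 5 d ON pair (adjusted p = 1). In both genes the lowest values of the 10 fell in the 3 libraries with low component scores.

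Whether withdrawal changed the gap between inducers was tested as an interaction, the difference in the 2 OFF profiles minus that in the 3 ON profiles. No gene of 11830 was called by edgeR (0%, smallest adjusted p 0.13), with 402 at an unadjusted p under 0.05 (3.4%), and DESeq2 called 15 (0.127%). Without the 5 d ON pair edgeR called 17 genes, 15 of them with a negative interaction, and with the first component as a covariate it called 29, 23 of them negative.

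The gene with the smallest p was far lower under CHIR99021 than under Wnt3a while the stimulus was on, and close to it after withdrawal. ENSRNOG00000003171 stood at 30.8, 208 and 323 CPM under Wnt3a at 1, 3 and 5 d ON, against 0.764, 4.47 and 10.7 CPM under CHIR99021. After 1 and 2 d OFF it stood at 81.4 and 169 CPM under Wnt3a, against 54 and 120 CPM under CHIR99021. All 3 ON pairs were far apart and the 2 OFF pairs close, and unstimulated cells went through 0.852, 177 and 365 CPM at 0, 3 and 5 d. The Wnt3a libraries at 3 and 5 d ON were thus near the unstimulated cells of their day, and the CHIR99021 libraries at 3 and 5 d ON far below them. After 2 d OFF the CHIR99021 library (120 CPM) was nearer to the unstimulated 3 d level (177 CPM). For 1 d ON and 1 d OFF there is no unstimulated library of the same day. The interaction was -4.69 (SE 0.50, edgeR adjusted p = 0.13, DESeq2 adjusted p = 2.8e-09), and the edgeR adjusted p was 0.0012 without the 5 d ON pair.

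ENSRNOG00000018950 had the same order, with 88.3, 61 and 9.99 CPM under Wnt3a at 1, 3 and 5 d ON, against 4.96, 0.895 and 0.282 CPM under CHIR99021 (26, 4 and 1 counts). In the 1 and 2 d OFF profiles it stood at 74.6 and 53 CPM under Wnt3a, against 37.8 and 35.8 CPM under CHIR99021. The Wnt3a value of 5 d ON was well below the other 4. The interaction was -4.18 (SE 0.68, edgeR adjusted p = 1, DESeq2 adjusted p = 0.00062), and the edgeR adjusted p was 0.018 without the 5 d ON pair.

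Among genes averaging at least 5 CPM, the 2 with the smallest p in the other direction were highest under CHIR99021 at 3 and 5 d ON. ENSRNOG00000011071 stood at 1.4, 4.41 and 6.66 CPM under Wnt3a at 1, 3 and 5 d ON, against 13.6, 49.9 and 77.7 CPM under CHIR99021, and after 1 and 2 d OFF at 7.05 and 2.88 CPM under Wnt3a, against 2.65 and 3.47 CPM under CHIR99021. The interaction was 4.09 (SE 0.74, edgeR adjusted p = 1, DESeq2 adjusted p = 0.0071). For both genes the Wnt3a value of 1 d ON is under the floor of that library (4.21 CPM). ENSRNOG00000006471 stood at 0, 1.65 and 4.58 CPM under Wnt3a at 1, 3 and 5 d ON, against 2.1, 69.3 and 69.6 CPM under CHIR99021, and after 1 and 2 d OFF at 1.67 and 0.865 CPM under Wnt3a, against 2.65 and 1.3 CPM under CHIR99021. The interaction was 4.02 (SE 0.84, edgeR adjusted p = 1, DESeq2 adjusted p = 0.16). Unstimulated cells of 0, 3 and 5 d held 1.14, 5.47 and 10.2 CPM of ENSRNOG00000011071, a range that takes in every Wnt3a library and both CHIR99021 libraries after withdrawal. For ENSRNOG00000006471 they held 0, 1.54 and 1.28 CPM. This range was exceeded by 3 Wnt3a libraries (3 and 5 d ON, 1 d OFF) and by the CHIR99021 libraries of 1, 3 and 5 d ON and 1 d OFF.

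**Figure D4:**
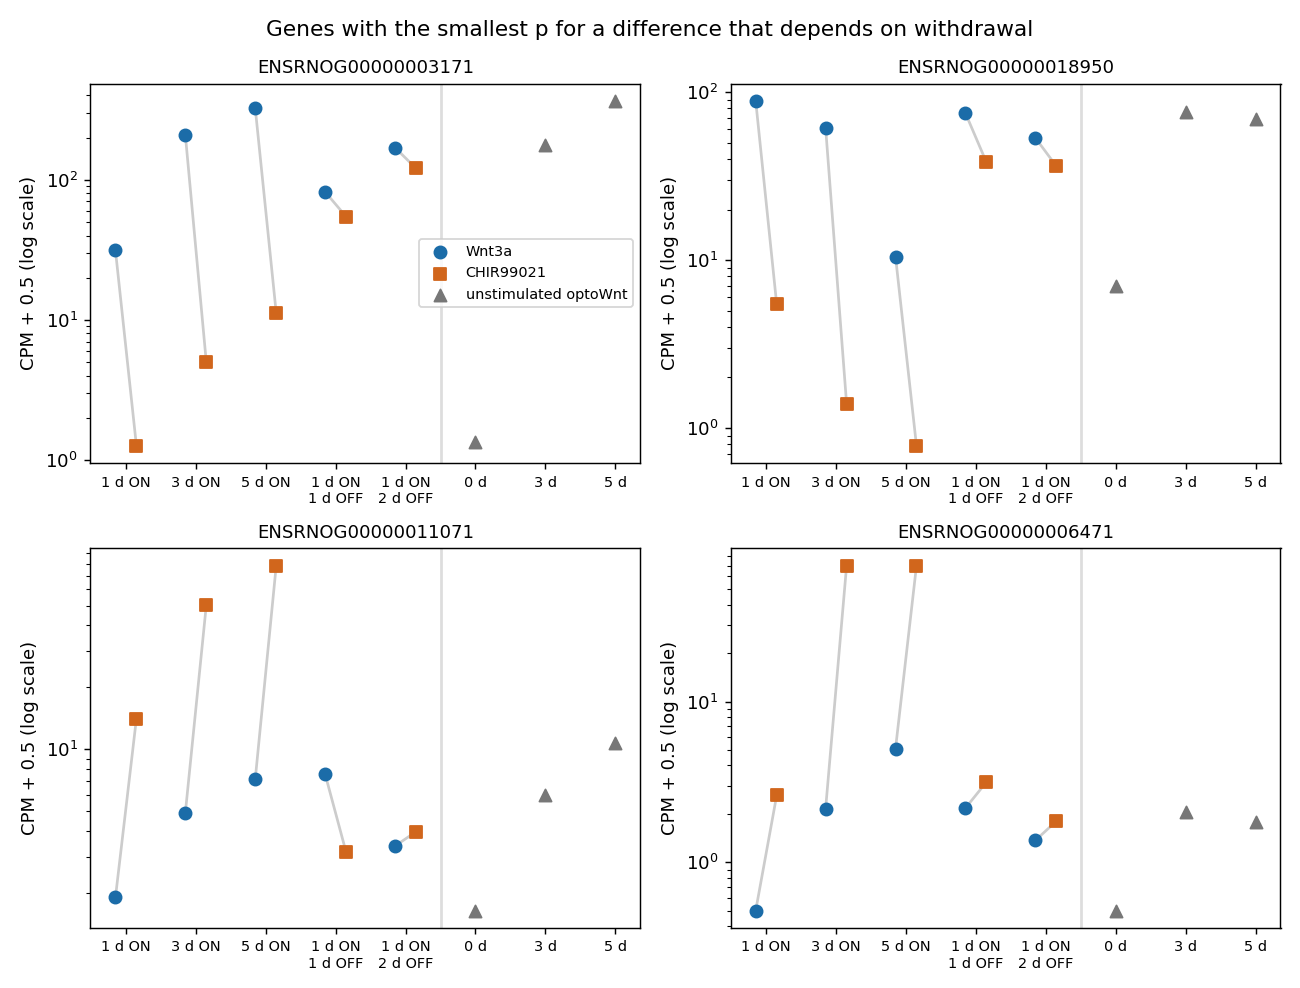
CPM plus 0.5, on a log axis, of 4 genes in the Wnt3a (blue circles) and CHIR99021 (orange squares) library of each treatment profile and in unstimulated optoWnt cells (grey triangles), 1 library per point. They are the 2 genes in each direction with the smallest p for a dependence on withdrawal, among genes averaging at least 5 CPM. In each panel the inducers lie far apart at 3 and 5 d ON and closer together after 1 or 2 d OFF, a dependence that edgeR did not call.

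The 2 withdrawn pairs, fitted alone with 1 residual degree of freedom, gave 80 called genes of 11110 (0.72%, edgeR), 23 higher and 57 lower under Wnt3a, whereas the 3 ON pairs alone gave 0 of 11285 (0%, smallest edgeR adjusted p 0.056, 910 with an unadjusted p under 0.05). These 2 counts do not test withdrawal, for which the interaction called 0 genes. Of the 23, 1 was lower under Wnt3a after 2 d OFF, so the 2 fitted pairs did not share its direction. The ON libraries had no part in the choice of the 80. Of the 57, 23 were lower under Wnt3a at 1 d ON, 43 at 3 d ON and 55 at 5 d ON, beside 54.7%, 51.1% and 49.9% of all tested genes. Of the 23, 7, 21 and 18 were higher under Wnt3a at 1, 3 and 5 d ON, beside 45%, 48.8% and 50% of all. At 1 d ON the median log2 difference was 0.17 in the 57 and -0.81 in the 23, opposite to the direction called.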

How the data were processed

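The authors deposited whole-number counts of reads per Ensembl gene (32623 IDs), with no normalization. Libraries were made with Lexogen's QuantSeq 3' kit, per the labels' protocols, and the submitters' processing notes name Bowtie2, Subread, featureCounts and Rnor_6.0. Nothing in the sources used here gives versions, the strand setting or the treatment of multi-mapping reads, so genes that overlap or have near-identical copies may share reads. Rows were tied to libraries by the well in the labels.

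Counts were tested with edgeR 4.0.16 (R 4.3.3; TMM, filterByExpr by profile, quasi-likelihood F test) on the 10 libraries, with profile as a block and inducer (4 residual degrees of freedom). The interactions with withdrawal and with days ON had 3. The profile label pairs the libraries, since both libraries of a pair had the same schedule. P-values were adjusted by Benjamini-Hochberg over all 11830 genes. DESeq2 1.42.0 was an alternative. CPM used TMM over all 20 libraries, and log2 differences a prior count of 2. Thinning drew reads without replacement, in a single random draw.

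The gene lists by symbol could not be applied, because 0 IDs matched the gene table. Named IDs are at most 2 per direction in a comparison, with a mean of at least 5 CPM: called genes by size, otherwise the smallest p, and for the mean difference a difference of 1 sign in 5 of 5 pairs. The members and rules were chosen with earlier results of these data known. No sequence is shown, since no ID could be matched.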

Additional observations from a re-analysis of the deposited data

Results flagged for a closer look

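Of 30 groups of 5 libraries checked (the named genes, total reads and first component score under each inducer), 3 held a library whose gap to the next was over 0.71 of the group's range. A rate of about 1 in 20 would hold for 5 replicates, but these are 5 different profiles, and the named genes were chosen on these values. No chance rate can therefore be set beside the 3. ENSRNOG00000026548 stood at 40 CPM in Wnt3a at 5 d ON, far above the other 4 Wnt3a libraries. ENSRNOG00000021023 stood at 271 CPM in CHIR99021 at 1 d ON 2 d OFF, against 27 CPM or less in the other 4 CHIR99021 libraries. The first component score of that library was -43.9, while the other CHIR99021 libraries scored 21.4 or higher.

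The difference between inducers changed with the days ON for 62 genes by edgeR. The slopes of the named ones were 2.52 (ENSRNOG00000008656), 1.72 (ENSRNOG00000026548), -1.52 (ENSRNOG00000018233) and -1.49 (ENSRNOG00000031358) log2 units per day.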

How the results depend on the processing

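With 1 library per inducer and profile, every count moved with single libraries or settings. The 0 calls for the mean difference became 163 with DESeq2, 216 with no low-count filter, 2 with the first component as a covariate, 5 with thinned counts, 2 in the fit of all 14 stimulated libraries, 4 in the fit of all 20 and 80 in the OFF profiles alone. They were 0 to 2 without any 1 pair (2 without 5 d ON), and 0 with RLE scaling, the filter by inducer, the ON profiles alone, no replicate block, or without the pairs 5 d ON and 1 d ON 2 d OFF. The 0 calls for withdrawal became 15 with DESeq2, 14 with no filter, 29 with the component and 0 to 17 without any 1 pair (17 without 5 d ON).

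The 62 slope calls became 131 with RLE scaling (70 above and 61 below 0), 840 with DESeq2, 1048 with no filter, 39 with the filter by inducer, 19 with the component, 782 in the ON profiles alone and 0 without the pairs 5 d ON and 1 d ON 2 d OFF, and 0 to 1319 without any 1 pair. Thinned counts gave 52. The 10 genes at least 2-fold apart in every pair were 10 to 36 without any 1 pair, where 1 pair fewer had to pass (30 without 1 d ON, 36 without 1 d ON 1 d OFF and 24 without 1 d ON 2 d OFF), and 7 to 13 under the other settings. The cause of the other moves was not tested. The component and thinning fits of the slope and of withdrawal, the ON-only fit of the slope, the fits without 2 pairs and all alternatives for the genes 2-fold apart were chosen after seeing the data. No named gene changed sign under any alternative run.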

Other observations

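For the 57 genes lower under Wnt3a in the fit of the OFF profiles alone, the median level was 50.7 and 49.1 CPM at 3 and 5 d ON and 51.6 and 24.8 CPM after 1 and 2 d OFF under Wnt3a, against 113, 246, 121 and 61 CPM under CHIR99021 and 97.8 and 89.4 CPM in unstimulated optoWnt cells of 3 and 5 d. At 1 d ON both inducers stood at about that level, with 112 CPM under Wnt3a and 111 CPM under CHIR99021. Light libraries held 87 and 62 CPM at 1 and 3 d ON and 109 and 71.4 CPM after 1 and 2 d OFF. For the 23 genes higher in that fit Wnt3a held 57.3 and 83.3 CPM after 1 and 2 d OFF, against 27 and 31 CPM under CHIR99021, 23.1 and 38.8 CPM under light and 24.4 CPM in unstimulated cells of 3 d. Both libraries of the 2 d OFF pair had low first component scores.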
